A study of Mus musculus with 8 samples.

Results

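The transcriptome of the ovary close to ovulation was described from the 4 control ovary libraries of a mouse study that holds 8 libraries in all. The 4 were chosen by their description as controls, and every gene of their count tables was taken, 41591 gene IDs in each. Each control library came from whole ovary of a female mouse, about 3 weeks old. The labels give C57BL/6, wild type and positive for Pgr-Cre, a Cre recombinase expressed from the progesterone receptor gene. These mice are the littermate controls of a conditional knockout of Insr and Igf1r, the genes of the receptors for insulin and for insulin-like growth factor 1, so the Cre allele is present in them as well. Superovulation was with equine chorionic gonadotropin (eCG, 4 IU), followed after 48 h by the human hormone (hCG, 5 IU), and tissue was collected 12 h after the second injection. The labels do not say whether 1 or both ovaries entered a library. Nothing beyond the separate numbers in the sample titles says that the 4 libraries are separate animals, so the SD given below is the spread between samples and may be partly technical.

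In superovulated immature mice, eCG acts like follicle-stimulating hormone (FSH) and makes a cohort of follicles grow, and hCG acts on the receptor for luteinizing hormone (LH) to trigger ovulation. Granulosa cells around the oocyte then stop making estrogen, turn towards progesterone production and remodel the matrix of the follicle, while the cumulus cells embed the oocyte in a hyaluronan gel. After the follicle opens, its granulosa and theca cells become the corpus luteum, a gland that takes up cholesterol and secretes progesterone.

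Levels are given on 2 scales. TPM (transcripts per 1000000) divide each count by the summed exon length of the gene and scale each library to the same total, and all comparisons between genes use TPM. CPM (counts per 1000000) are scaled by edgeR's TMM factors and compare 1 gene between libraries. Means are followed by the SD over the 4 libraries, and values per library are listed in the order of controls 1, 2, 3 and 4. The libraries held 35189247, 34840901, 37592984 and 34785650 counts in genes. At that depth, a gene of 1000 bases with a count of 0 could have been at up to 0.201 to 0.246 TPM (3 counts, counting error only).

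The libraries were not equally alike. Controls 2 and 4 were the closest pair, with 2.83% of genes differing by over 2-fold, and controls 1 and 3 the most distant, with 13.1%. Control 1 lay alone at the positive end of the first principal component of the log2 CPM and control 3 alone at the negative end. This component held 60.1% of the variance, with scores of 56.6, -9.72, -39.3 and -7.57. Of the 10224 genes at a mean of 10 CPM or more, 76 were at least 2-fold above all other libraries in control 1. In the same library 109 genes were at least 2-fold below all others. The same counts were 1 and 2 in control 2, 17 and 79 in control 3, and 2 and 10 in control 4. Control 3 differed by gene length: relative to the mean of the other libraries, the 2558 shortest genes had a median log2 ratio of 0.31 and the 2556 longest -0.33, whereas all 4 length classes of the other libraries lay between -0.16 and 0.13. This trend was removed by dividing each library by its median trend in 50 classes of gene length, estimated over the same genes, an adjustment added after seeing the data. The resulting values, length-adjusted CPM, are given below where they bear on a statement about control 3. Results below that rest on either library are given with its value beside them.

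Reads that match several places limited some genes. Of 21661 protein-coding gene IDs, 1010 had exons on more than 1 sequence of the reference, and 407 of these (40.3%) had no count in any library, against 3421 (16.6%) of the 20651 on 1 sequence. Genes of this kind named below, such as Cyp21a1, Gatm, Cldn5, Aif1 and Cd2, are uncertain, and their absence from the counts is no measure of their expression.

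Expression was concentrated in few genes. A mean of 1 TPM or more was reached by 14873 genes, among them 13306 (61.4%) of the protein-coding IDs. There were 9662 genes at 10 TPM or more, 2003 at 100 or more and 129 at 1000 or more. The 31 highest genes held 10% of all TPM, 721 held 50% and 5738 held 90%. Protein-coding genes held 97.5% of all TPM.

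**Figure D1:**
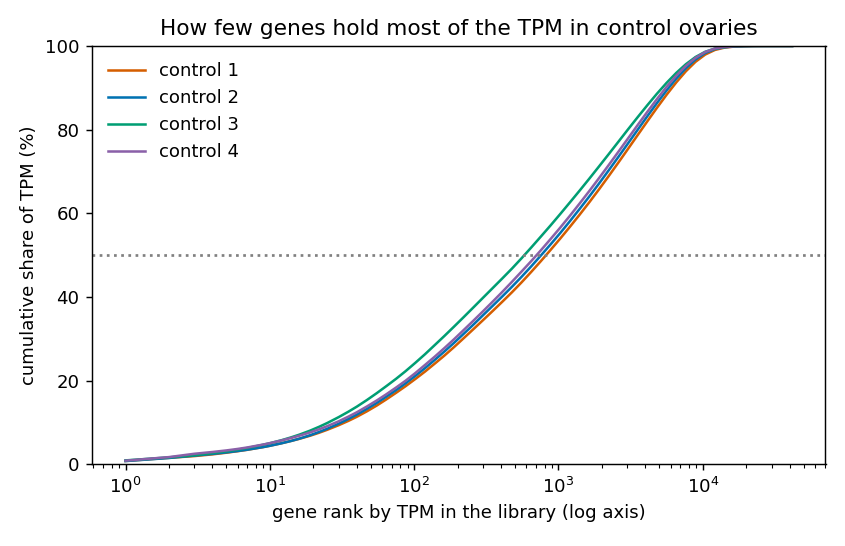
Cumulative share of TPM (percent, vertical axis) against gene rank by TPM within each library (log axis), 1 line per control library. The line of control 3 crosses the dotted line at 50% at the lowest rank and that of control 1 at the highest, on either side of rank 721, the number obtained from the mean over libraries.

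Tpt1 and genes of translation led the ranking. The highest coding gene was Tpt1, which codes for a translationally controlled tumour protein, at 8011 ± 854 TPM, followed by the elongation factor gene Eef1a1 at 7806 ± 554. Ribosomal protein genes made up 22 of the 50 highest coding genes and held 11.3% ± 1.13 of all TPM over 87 genes. The row at rank 3 overall was Mir6236, at 1639, 5664, 3206 and 8589.8 TPM, a row of only 123 bases in which few reads give a large TPM. Rn18s-rs5, a row of ribosomal RNA sequence, stood at 2969 ± 511 TPM. Neither of these 2 rows measures a messenger RNA.

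With the ribosomal proteins set aside, the 20 highest coding genes mixed general cell genes with genes that mark the ovulating follicle. Steroid enzymes stood at ranks 3 and 5 of these 20, Cyp11a1 at 4030.1 ± 752 TPM and Hsd3b1 at 3589 ± 535 TPM, with the nucleic acid binding protein gene Ybx1 (3902 ± 456) between them. Ephx2, which codes for soluble epoxide hydrolase, an enzyme of fatty acid epoxides, came next at 3094 ± 663 TPM. The lysosomal genes Ctsl and Psap stood at 2807 ± 687 and 2799 ± 761 TPM, and the matrix gene Sparc at 2728 ± 264. Mt2, a metallothionein that binds zinc and copper, was at 2585 ± 1071 TPM, the aldo-keto reductase gene Akr1cl at 2536 ± 275 and the protease inhibitor gene Timp1 at 2262 ± 966. The list closed with Sfrp4, a secreted inhibitor of Wnt signalling, at 2124 ± 921 TPM, and the next such gene was the inhibin subunit gene Inha at 2108 ± 272. The other members were Hsp90ab1, Actb, Eef2, Ftl1, Hspa8, Tceal9 and Ppia. Neighbours in this ranking were mostly not separated by the spread: of 19 neighbouring pairs, 2 stood in the same order in all 4 libraries.

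**Figure D2:**
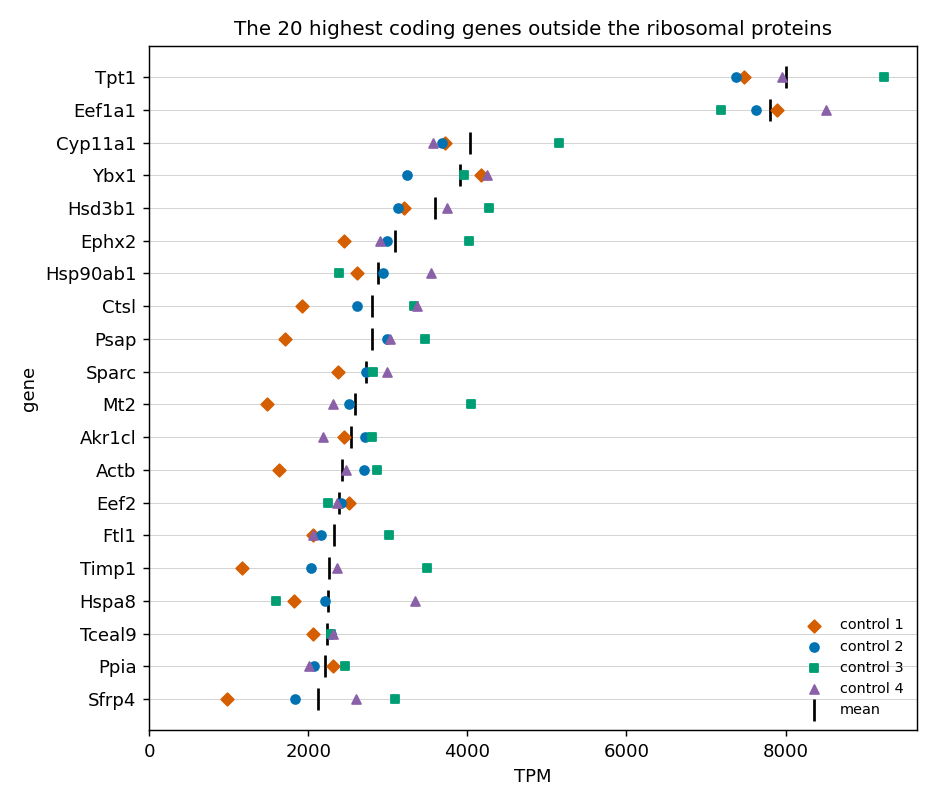
TPM (horizontal axis) of the 20 highest protein-coding genes outside the ribosomal proteins, ordered by their mean, with 1 marker per control library and a bar at the mean. Tpt1 and Eef1a1 stand apart from the rest, at means of 8011 and 7806 TPM, and control 1 is the lowest marker for Psap, Mt2, Timp1 and Sfrp4.

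The tissue and sex labels were checked against markers. Xist, transcribed from the inactive X chromosome of females, was at 152, 128, 62.5 and 107 TPM, and the Y-linked genes Ddx3y, Uty, Kdm5d, Eif2s3y and Sry had no count in any library. Foxl2, the transcription factor that marks granulosa cells, was at 173, 161, 104 and 119.5 TPM, and the oocyte growth factor gene Gdf9 at 37.8, 162, 116 and 126. Markers of ovary were therefore present in every library, and Gdf9 was lowest in control 1.

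Genes of progesterone production were far above those of androgen and estrogen production. The 33 genes of steroid synthesis and metabolism held 1.74% ± 0.1995 of all TPM, and 18 of them were at 100 TPM or more, with a median of 110.1 TPM. Cyp11a1 (chromosome 9, 57998029 to 58027023 in GRCm38.p5) codes for the mitochondrial enzyme that cuts the cholesterol side chain to give pregnenolone. Its level was 3714, 3679, 5155 and 3572 TPM, with controls 1, 2 and 4 close together and control 3 above them. On the CPM scale the values were 3795, 3967, 6401 and 3998, and the length-adjusted CPM were 4014, 3927, 6058 and 3922. Control 3 thus stayed the highest after that adjustment.

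Hsd3b1 (chromosome 3, 98842355 to 98859794), whose enzyme turns pregnenolone into progesterone, was at 3209, 3124, 4276 and 3746 TPM. Its libraries overlapped those of Cyp11a1, and together the 2 genes held 0.762% of all TPM. Star (chromosome 8, 25808513 to 25815982), which carries cholesterol into mitochondria and so feeds Cyp11a1, was at 767, 1705, 1533 and 1674 TPM, with control 1 well below the other libraries, which lay close together. The electron carriers of Cyp11a1 differed in level from each other, ferredoxin Fdx1 at 1274, 1204, 1749.7 and 1213 TPM and its reductase Fdxr at 304, 327, 465 and 234. In both, control 3 was the highest. Cyb5a, a cytochrome that assists several steroid enzymes, stood at 1271 ± 166.9 TPM.

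Enzymes of androgen and estrogen production were far lower. Cyp17a1, the theca enzyme that makes androgens, was at 17.5, 56.4, 29.9 and 64.8 TPM, and Cyp19a1, the aromatase of granulosa cells, at 3.76, 20.7, 12.5 and 8.099 TPM. In each library the TPM of Cyp11a1 was 55.1 to 213 times that of Cyp17a1 and 178 to 987 times that of Cyp19a1. Control 1 was the lowest for both of the low genes. Hsd17b1, which makes estradiol from estrone, was at 181, 223, 142 and 117 TPM, above Cyp19a1 in all 4 libraries. A whole ovary was measured, so fewer cells of a type and less RNA per cell cannot be told apart in these levels or in those below.

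Enzymes that reduce steroids were uneven. Akr1cl was the third highest member at 2444, 2708, 2801 and 2190.3 TPM, and Akr1c14, an enzyme that reduces steroid ketones, was at 338, 406, 248 and 405. Akr1c18, which inactivates progesterone in the late corpus luteum, was at 15.8, 90.9, 171 and 163 TPM and was the list member with the largest spread among those at 10 CPM or more, with a coefficient of variation (CV, the SD as a percent of the mean of the CPM) of 69.5%. Control 1 was lowest and controls 3 and 4 were highest. Srd5a1, a steroid reductase of androgens and progesterone, was at 30.1, 19.9, 14.8 and 21.3 TPM, and Hsd3b6, a close relative of Hsd3b1, at 3.16 ± 0.397. Cyp21a1, an adrenal enzyme with exons on several sequences, had no count in any library. Of 30 neighbouring pairs among the 31 members at 1 TPM or more, 10 kept 1 order in all 4 libraries.

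**Figure D3:**
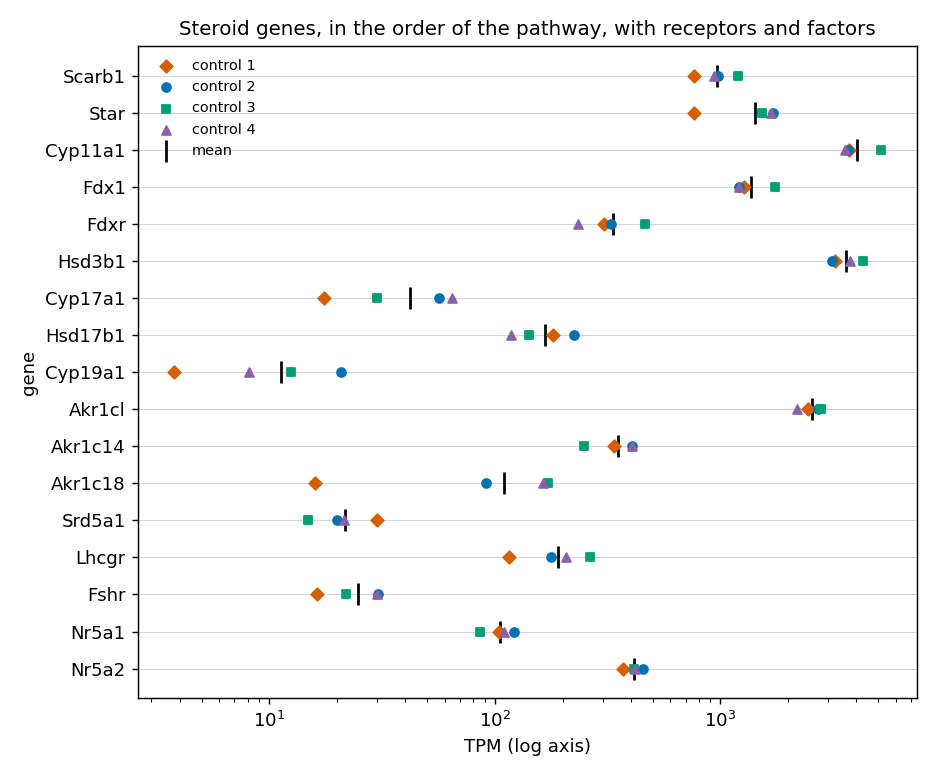
TPM (log axis) of genes that take up cholesterol (Scarb1), make or alter steroids (Star to Srd5a1), receive gonadotropins (Lhcgr, Fshr) or control transcription (Nr5a1, Nr5a2), with 1 marker per control library and a bar at the mean. Cyp11a1, Hsd3b1 and Akr1cl lie at the right in every library, Cyp19a1 and Cyp17a1 at 11.3 and 42.1 TPM on average, and control 1 is low for Star, Akr1c18 and Cyp19a1.

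Genes of cholesterol uptake and of cholesterol synthesis had similar totals. The 25 genes of uptake and storage held 0.376% ± 0.0164 of TPM and the 23 genes of synthesis 0.387% ± 0.0303, ranges that overlapped between libraries. Scarb1, the receptor that takes cholesterol esters from high-density lipoprotein, led uptake at 759.8, 971, 1194 and 938 TPM. Soat1, which stores cholesterol as esters, was at 525, 604, 557 and 753 TPM. Scarb1 was lowest in control 1 and highest in control 3. Apoe, a lipoprotein component, stood at 610.3 ± 124 TPM, and Abca1, which exports cholesterol, at 321, 191, 102 and 219.7, highest in control 1 and lowest in control 3. Plin2, the common coat protein of lipid droplets, was at 80.9 ± 2.57 TPM.

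In synthesis every one of the 23 genes was above 1 TPM and 14 were at 100 TPM or more. Msmo1, an enzyme of the late pathway, led at 564, 556, 573 and 702 TPM, followed by the farnesyl diphosphate synthase gene Fdps at 398, 478, 707 and 525 and the early enzyme gene Hmgcs1 at 463, 395, 373 and 519. Control 4 held the highest CPM for 12 members and control 3 for 11, against 29.4% and 36.9% of all genes at 10 CPM or more. Controls 1 and 2 were highest for none of the 23. By length-adjusted CPM, controls 3 and 4 were each highest for 11 and control 1 for 1.

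Among 48 genes of peptide hormones and growth factors, the inhibin alpha subunit dominated. Inha (chromosome 1, 75507077 to 75510366), whose product pairs with a beta subunit to form inhibin, the hormone that lowers pituitary FSH, was at 1939, 2462, 2174 and 1856 TPM and held 45.3% of the list's total. Its beta partners were far lower, Inhbb at 90.8, 194, 111 and 111 TPM and Inhba at 29.01, 66.7, 10.9 and 75.9 TPM. The TPM of Inha was 12.7 to 21.3 times that of Inhbb and 24.5 to 199 times that of Inhba, depending on the library. Inhba was among the 10 most variable genes at 50 CPM or more, with a CV of 67.7%, and was lowest in control 3. Its long exon length of 7145 bases falls in the class of longest genes, which was low in that library, and its length-adjusted CPM were 65.3, 165, 36.4 and 182, which kept control 3 lowest. Fst, which binds and blocks activin, was at 146, 233, 163 and 182 TPM.

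Signals of ovulation followed. Edn2, an endothelin made by granulosa cells around ovulation and a constrictor of smooth muscle, was at 118, 760.1, 746 and 693 TPM. Controls 2, 3 and 4 lay close together and control 1 was far lower, so its mean of 579 ± 309 TPM describes no single library well. The epidermal growth factor family members that relay LH from mural to cumulus cells stood at 200.8, 319.9, 281 and 498 TPM for Ereg, 18.98, 49.7, 52.2 and 78.04 for Areg and 18.3, 43.6, 51.3 and 76.3 for Btc. Ereg was the highest of the 3 in every library, and control 1 was lowest for all 3. Amh, the hormone of growing follicles, was at 271, 298, 137 and 206 TPM, and the vascular growth factor gene Vegfa at 164, 178, 157 and 119. Amh was lowest in control 3 and Vegfa in control 4. Gdf9 and Bmp15, which oocytes secrete, were at 110.3 ± 52.3 and 32.6 ± 16.6 TPM. Kitl, the ligand that supports oocyte growth, was at 64.9 ± 14.7 TPM and Igf1 at 44.6 ± 8.92, while Igf2 was at 9.04 ± 4.97. The pituitary hormone gene Prl had no count in any library, and 36 of the 48 genes reached 1 TPM.

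Hormone receptors had a median of 25.2 TPM, and 37 of the 40 reached 1 TPM. The median of all coding genes on 1 sequence was 6.37 TPM. The 40 receptors summed to 2037, 2027, 1701 and 2059 TPM, a value that was lowest in control 3 and nearly level in the rest. Control 3 had the lowest CPM for 17 of 30 members at 10 CPM or more, against 35.3% of all such genes. By length-adjusted CPM this held for 12 of 30, against 31.9% of all genes. Control 3 was then the highest for 11, against 32.3% of all genes. The summed TPM are not adjusted for the trend. Pgrmc1, a haem-binding membrane protein named for its association with progesterone, led at 332 ± 12.97 TPM, and Il6st, the shared signalling subunit for interleukin 6 family cytokines, was at 192 ± 60.4.

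The gonadotropin receptors were unequal. Lhcgr, the receptor through which hCG acts, was at 116, 177, 264 and 206 TPM and Fshr, the FSH receptor, at 16.2, 30.4, 21.9 and 29.97 TPM. Lhcgr was 5.83 to 12.1 times Fshr, and Lhcgr itself was lowest in control 1 and highest in control 3. Among steroid receptors, the estrogen receptor gene Esr2 was at 96.5, 103, 39.2 and 76.6 TPM and Esr1 at 19.01, 8.71, 4.47 and 9.89, and Esr2 was the higher in all 4 libraries. The glucocorticoid receptor gene Nr3c1 was at 18.8 ± 3.17 TPM. Pgr, the progesterone receptor gene, which LH induces briefly before ovulation and from which Cre is expressed in these mice, was at only 1.11, 0.925, 0.389 and 1.15 TPM. Its mean CPM was 4.84 ± 1.73, with a mean of 171 counts per library. An effect of the Cre allele on Pgr was not tested.

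Receptors of insulin and growth factors were readily detected in these control ovaries. Insr (chromosome 8, 3150922 to 3279649) was at 52.1, 47.96, 36.2 and 45.7 TPM and Igf1r (chromosome 7, 67951833 to 68233668) at 62.7, 55.3, 37.6 and 50.3 TPM, and in all 4 libraries Igf1r was the higher. Both were lowest in control 3 and highest in control 1 on the TPM scale, and this order did not hold after length adjustment. Both genes are long, with 9423 and 12699 exon bases, and their length-adjusted CPM were 152, 153, 169 and 147 for Insr and 234, 242, 249.8 and 212 for Igf1r. On that scale control 3 was the highest and control 4 the lowest for both. The growth hormone receptor gene Ghr was at 48.8 ± 9.01 TPM, the epidermal growth factor receptor gene Egfr at 70.7 ± 12.7 and the prolactin receptor gene Prlr at 106 ± 27.8. Amhr2, the receptor for Amh, was at 113 ± 25.5 TPM and Npr2, the receptor through which C-type natriuretic peptide holds the oocyte in meiotic arrest, at 69.3 ± 16.04. The luteal receptors Oxtr for oxytocin and Ptgfr for prostaglandin F were at 31.6 ± 8.17 and 25.8 ± 8.69 TPM. The prostaglandin E receptors Ptger4 and Ptger2 were at 7.35 ± 1.097 and 6.12 ± 0.7701 TPM.

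All 33 transcription factors of the list were above 1 TPM, and 17 were at 100 TPM or more. Nr5a2, a nuclear receptor that granulosa and luteal cells need, led at 369, 455, 412 and 418 TPM, and its relative Nr5a1 was at 105, 121, 86.1 and 109.5. The ratio of Nr5a2 to Nr5a1 was 3.53 to 4.79, above 1 in every library. Cebpb, a factor that granulosa cells need for ovulation, was at 318, 382, 523 and 430.01 TPM and the hypoxia factor gene Hif1a at 364, 375, 293 and 417. Foxo1, a factor of growing granulosa cells that insulin and FSH signalling restrain, was at 238 ± 58.6 TPM. Runx1 and Runx2, which LH induces, were at 131, 130.4, 123 and 131 and 81.9, 85.1, 109 and 83.1 TPM. The CV of Runx1 was 5.47% by CPM and 16.97% by length-adjusted CPM, with control 3 the highest on the second scale at 307, 329, 436 and 321. Runx2 was highest in control 3 on both scales. The early growth response gene Egr1 was at 82.7, 276, 280.3 and 383 TPM, with control 1 far below the rest.

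Genes known to respond to LH held 2.01% ± 0.506 of TPM over 34 members, with a median of 143 TPM. Their summed level was 13754, 19585, 26059 and 20984 TPM, lowest in control 1 and highest in control 3. At 10 CPM or more, 25 of 31 members had their lowest CPM in control 1 and 21 their highest in control 3, against 32.1% and 36.9% of all such genes. By length-adjusted CPM these counts were 25 and 20, against 28.6% and 32.3%. The median CV of the members was 39.5%, against 14.1% for all genes at 10 CPM or more. No ovary was sampled before hCG, and induction itself was therefore not measured.

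Within the list Cyp11a1, Ctsl, Mt2, Timp1, Mt1, Star and Adamts1 were above 1000 TPM. Ptgs2, the prostaglandin synthase that ovulation requires, was at 106, 172, 195 and 271 TPM. Rgcc, a regulator of the cell cycle, was at 486, 464, 891 and 438 TPM, highest in control 3. Snap25, a protein of vesicle fusion that LH induces in granulosa cells, was at 9.87, 33.4, 43.7 and 29.6 TPM, and Sult1e1, which inactivates estrogen, at 2.06, 4.22, 11.6 and 5.27. Control 1 was lowest for Ptgs2, Snap25 and Sult1e1. Errfi1, a brake on epidermal growth factor receptors, had 1.75 counts per library on average and exons on several sequences, so its level is uncertain.

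The metallothioneins and Timp1 stood out for both level and spread, so the sequences before their start sites are shown. Mt1 and Mt2 code for small cysteine-rich proteins that bind metals, and both are known to be switched on by zinc through metal response elements in their promoters. Timp1 codes for a secreted inhibitor of matrix metalloproteinases. The windows hold the 250 bases before the start listed by RefSeq in GRCm38.p6, on the plus strand, and capitals mark the core of the metal response element, searched as TGCACNC and TGCGCNC on both strands. They lie at chr8:94172368-94172617 for Mt2, chr8:94178839-94179088 for Mt1 and chrX:20869916-20870165 for Timp1.
Mt2: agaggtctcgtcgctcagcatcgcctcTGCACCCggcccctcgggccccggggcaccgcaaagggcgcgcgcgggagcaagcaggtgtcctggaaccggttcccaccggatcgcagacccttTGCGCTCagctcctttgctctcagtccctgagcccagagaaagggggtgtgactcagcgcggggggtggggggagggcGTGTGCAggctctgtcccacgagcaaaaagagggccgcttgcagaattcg
Mt1: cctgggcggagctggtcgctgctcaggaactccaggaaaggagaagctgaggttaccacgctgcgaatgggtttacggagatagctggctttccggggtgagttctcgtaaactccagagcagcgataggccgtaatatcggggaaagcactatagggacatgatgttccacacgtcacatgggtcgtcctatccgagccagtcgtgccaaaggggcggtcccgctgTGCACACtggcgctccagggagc
Timp1: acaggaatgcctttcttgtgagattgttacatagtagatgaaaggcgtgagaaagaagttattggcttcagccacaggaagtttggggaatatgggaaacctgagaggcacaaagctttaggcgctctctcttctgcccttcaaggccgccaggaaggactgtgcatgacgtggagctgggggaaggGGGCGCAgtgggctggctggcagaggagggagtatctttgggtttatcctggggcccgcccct
Mt2 held 3 matches, beginning 223, 128 and 50 bases before its start, Mt1 held 1 at 23 bases and Timp1 1 at 63 bases. Of all 32851 such windows, 21.4% held at least 1 match and 1.26% held 3 or more. A match is a stretch of letters and no measure of binding. Bases beyond these windows, on either side, were not searched, so these counts do not give the number of elements in each promoter. Other kinds of element were not examined.

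Mt2 was at 1477, 2509, 4044 and 2309 TPM, Mt1 at 1197, 1465, 2395 and 1589 and Timp1 at 1162, 2032, 3496 and 2358. For all 3 control 1 was the lowest and control 3 the highest, with controls 2 and 4 between them and close together. Their CVs on the CPM scale were 50.1%, 40.2% and 50.8%, against a counting error of under 1% for each. These are short transcripts of 556, 760 and 890 bases, the class that was high in control 3. The length-adjusted CPM were 297, 522, 697 and 527 for Mt2, 327, 417, 587 and 489 for Mt1 and 372, 678, 1004 and 849 for Timp1. Control 1 was still the lowest and control 3 the highest, with smaller CVs of 32.2%, 24.2% and 37.3%.

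Matrix genes were led by Sparc and basement membrane collagen. The 32 collagen and basement membrane genes held 0.9405% ± 0.0714 of TPM, and all were above 1 TPM. Sparc, a secreted collagen-binding protein, was at 2369, 2728, 2819 and 2994 TPM and made up 29.001% of the list. The type IV collagen chains Col4a1 and Col4a2, which form the basement membrane of follicles and vessels, were at 1032, 1331, 1337 and 1373 and 730.4, 862, 858 and 889 TPM. Their ratio was 1.41 to 1.56, so the 2 chains kept nearly the same proportion in every library. The fibrillar collagens Col3a1, Col1a2 and Col1a1 stood at 1029.97 ± 132, 544 ± 67.3 and 339.9 ± 42.01 TPM. Fibronectin Fn1 was at 245 ± 27.3 TPM and the laminin chains Lamb1 and Lamc1 at 219 ± 18.6 and 171 ± 19.98.

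In the hyaluronan matrix, Vcan and Tnfaip6 were above the hyaluronan synthase genes in every library. Ptx3 was above the synthase gene Has1 in some libraries and below it in others. Vcan, the versican proteoglycan that binds hyaluronan, was at 315, 443, 366 and 415 TPM, lowest in control 1. Tnfaip6, which links hyaluronan to inter-alpha-inhibitor chains, was at 43.2, 108, 141 and 155 TPM, and Ptx3, a pentraxin of the expanded cumulus, at 14.1, 16.6, 43.1 and 25.1. The synthase genes Has1 and Has2 were at 8.67, 25.95, 36.5 and 45.4 and 1.47, 5.68, 9.43 and 9.06 TPM, and Has3 at 1.72 ± 0.4495. Has1 was thus above Has2 in every library, and both were lowest in control 1. The small proteoglycans Bgn and Dcn, known from stroma, were at 628 ± 86.7 and 326 ± 109 TPM. The inter-alpha-inhibitor genes Ambp and Itih1, which the liver makes, were below 0.1 TPM.

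Proteases and their inhibitors held 1.22% ± 0.194 of TPM over 32 genes. The lysosomal protease gene Ctsl, which progesterone receptor induces in ovulating follicles, was the highest at 1918, 2612, 3327 and 3370.1 TPM. Adamts1, a secreted protease that cleaves versican, was at 704, 1561, 1396 and 1629 TPM, with control 1 below all the rest, which overlapped closely. Serpine2, an inhibitor of plasminogen activators and thrombin, was at 1033, 1200.1, 1037 and 1023 TPM and differed little. The plasminogen activators Plau and Plat were at 532, 497, 443 and 488 and 134, 157, 159.98 and 152 TPM. Among matrix metalloproteinases Mmp14 and Mmp11 led at 243 ± 9.88 and 239 ± 57.5 TPM, Mmp2 and Mmp19 were at 118 ± 19.96 and 117 ± 25.9, and Mmp9 and Mmp13 stood at 1.24 ± 0.384 and 0.202 ± 0.165. Timp1 was 5.74 to 29.5 times the level of its relative Timp2. Of the 9 neighbouring pairs among the 10 highest genes, 7 stood in 1 order in all 4 libraries.

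Marker lists of cell types were compared by their summed TPM, which counts RNA and not cells. Luteal genes summed to 11342, 13183, 17782 and 14558 TPM and granulosa genes to 5571, 6720.1, 5371 and 5246, and the luteal total was the higher in every library. The luteal list is led by Cyp11a1 and Hsd3b1, which theca and interstitial cells also express. Sfrp4 was at 981, 1832, 3089 and 2594 TPM, lowest in control 1, and Mgarp, a mitochondrial protein of steroid-producing cells, at 676, 587, 675 and 580.5. In the granulosa list, Inha and Serpine2 were the highest, and Bex4 was at 552 ± 26.7 TPM. Theca genes summed to 2274, 2467, 2745 and 2730.1 TPM, of which Fdx1, shared by all steroid cells, made up 53.3%. The theca hormone gene Insl3 was at 1.94, 1.37, 3.08 and 2.93 TPM.

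Cumulus genes summed to 628, 1016, 1018 and 1385 TPM, lowest in control 1 and highest in control 4. Oocyte genes summed to 326, 953, 667 and 764 TPM, again lowest in control 1, which had the lowest CPM for all 14 of the 14 members at 10 CPM or more. Control 2 had the highest for 13 of them. The zona pellucida genes Zp3, Zp2 and Zp1, which form the coat of the oocyte, were at 35.02, 117, 84.4 and 97.4, 33.03, 104, 62.8 and 89.1 and 11.1, 46.4, 28.96 and 37.6 TPM. Control 2 was the highest library for each of them.

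Smooth muscle and pericyte genes summed to 2892, 3979, 4705 and 4378 TPM, with the actin-binding gene Tagln at 1456 ± 339, the smooth muscle actin gene Acta2 at 1093 ± 207 and the enteric actin gene Actg2 at 482 ± 163. Control 1 had the lowest CPM for 13 of 15, against 32.1% of all genes at 10 CPM or more. Stroma genes summed to 2944, 3364, 2673 and 3626 TPM, with Pdgfra, a receptor of fibroblasts, at 98.6 ± 25.9. Endothelial genes summed to 669, 668, 685 and 733 TPM, the most even of the cell lists, with Cdh5 at 101, 95.9, 92.7 and 116 and Pecam1 at 79.7, 78.995, 76.6 and 94.7.

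Blood and immune markers were mostly low. Macrophage genes summed to 585, 528, 443 and 700.2 TPM, with Lyz2 at 174 ± 52.9 and C1qa at 94.5 ± 11.5. All 9 members at 10 CPM or more had their highest CPM in control 4, against 29.4% of all such genes. Neutrophil genes summed to 52.2, 27.8, 123 and 55.2 TPM. S100a9 and S100a8, calcium-binding proteins of neutrophils, were at 6.35, 8.16, 50.5 and 20.96 and 5.18, 4.73, 38.8 and 16.3 TPM and were highest in control 3, while Ly6g and Elane were below 1 TPM throughout. Lymphocyte genes summed to 16.1, 19.2, 16.97 and 21.7 TPM, with the T cell genes Cd3e and Cd3d at 0.451 ± 0.214 and 0.362 ± 0.111. Of the mast cell total of 255, 147, 137 and 125 TPM, 89.3% was Hdc, which makes histamine in other cells too, and Cpa3 was at 1.81 ± 0.486 TPM. Adipocyte genes summed to 465, 386, 498 and 522 TPM, of which the fatty acid binding gene Fabp4, also found in endothelium, made up 51.5%. Adipoq, the adiponectin gene, was at 19.2, 4.32, 6.798 and 9.91 TPM, highest in control 1.

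**Figure D4:**
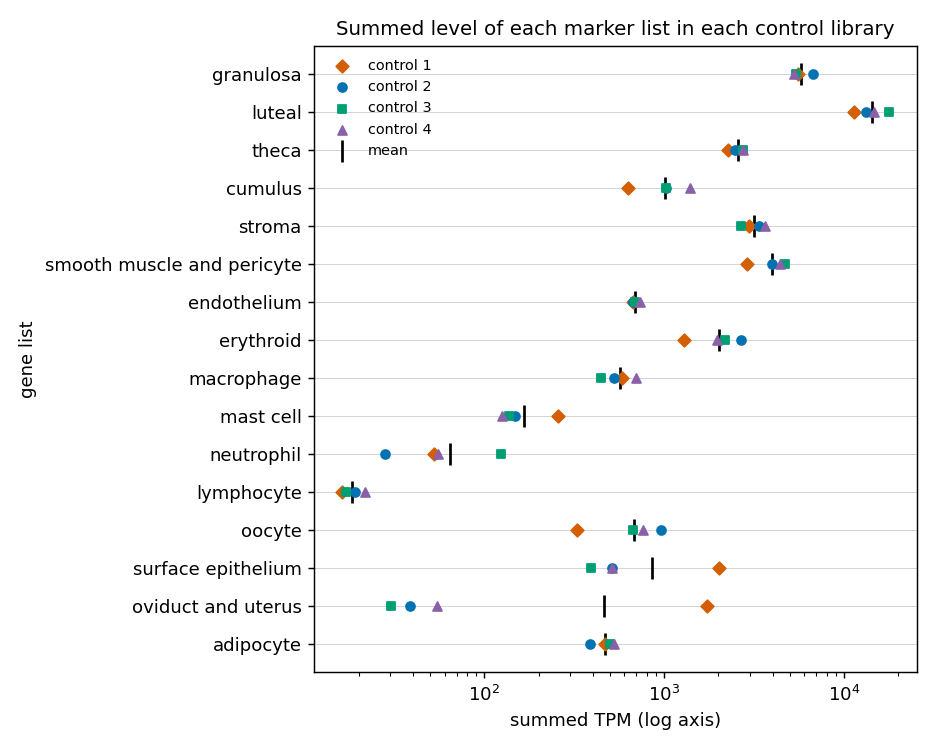
Summed TPM (log axis) of 16 marker lists, with 1 marker per control library and a bar at the mean. Control 1 lies far to the right for oviduct and uterus (1734 TPM against 30.4 to 54.7) and surface epithelium (2016 against 393 to 511), and to the left for oocyte and cumulus genes. Its low erythroid total comes from a list that holds Hbb-bs and Hbb-bt and lacks Hbb-b1 and Hbb-b2.

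Control 1 was far above the other libraries for genes of the oviduct and of surface epithelium. Oviduct and uterus genes summed to 1734, 38.5, 30.4 and 54.7 TPM. Ovgp1 (chromosome 3, 105973802 to 105987423), the oviduct-specific glycoprotein that coats eggs after ovulation, was at 1374, 12.6, 3.901 and 25.3 TPM, and Foxj1, the master factor of motile cilia, at 40.98, 0.727, 0.266 and 2.81. Ltf and Sprr2f, secretory and barrier genes of the reproductive tract, were at 87.001, 1.41, 1.03 and 1.55 and 141, 12.4, 14.3 and 9.55 TPM. Of the 11 list members, Wfdc3 and Krt5 alone were not highest in control 1 on the TPM scale, with values under 2 TPM in all libraries. In controls 2 to 4 Ovgp1 was low but not absent.

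Surface epithelium genes summed to 2016, 511, 393 and 509.6 TPM. All 13 members had their highest CPM in control 1, against 22.7% of all genes at 10 CPM or more. The keratins Krt19, Krt18, Krt8 and Krt7 were at 380.4, 39.1, 38.4 and 41.9, 314, 77.8, 60.7 and 83.1, 288, 79.7, 60.5 and 77.8 and 189.7, 30.7, 28.9 and 32.97 TPM. Upk3b and Msln, which mark mesothelium and ovarian surface, were at 227, 32.4, 24.1 and 35.2 and 124, 23.998, 23.8 and 20.6 TPM. The oviduct also expresses keratins, so the 2 lists are not independent of each other. Without control 1 the mean of the surface epithelium list was 471 TPM in place of 857 and that of the oviduct list 41.2 in place of 464. The complement gene C3 was at 575, 56.5, 35.6 and 99.01 TPM and the protease inhibitor gene A2ml1 at 183, 0.841, 0.128 and 5.84, both highest in control 1.

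The same library was lowest for many ovulatory genes given above, among them Star, Adamts1, Edn2, Akr1c18, Egr1 and the oocyte genes. The immediate early genes summed to 1111, 1764, 2024 and 2289 TPM. At 10 CPM or more, 17 of 18 had their lowest CPM in control 1, against 32.1% of all such genes. The part that the oviduct and surface epithelium genes of this library play in these lower levels was not tested. Granulosa and endothelial totals of control 1 lay within the range of the other libraries. Of their members at 10 CPM or more, 10 of 18 granulosa and 5 of 13 endothelial genes had their lowest CPM in control 1. Inha alone made up 36.8% of the granulosa list.

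Beta-globin genes set control 1 apart as well. Mice carry 1 of several arrangements of the adult beta-globin genes: Hbb-bs and Hbb-bt are the pair of the C57BL/6 arrangement, and Hbb-b1 and Hbb-b2 are the pair of another. Hbb-bs was at 498, 1443, 1168 and 1063 TPM and Hbb-bt at 106, 266, 199.9 and 184, both lowest in control 1. Hbb-b1 and Hbb-b2, added after the values were seen, were at 749.8, 3.1997, 3.51 and 3.38 and 208, 0.256, 0.851 and 1.17 TPM. The second pair thus held 61.3, 0.202, 0.318 and 0.364 percent of the beta-globin total in controls 1 to 4. Summed over both pairs, the beta-globin level was 1562, 1712, 1372 and 1251 TPM, and control 1 lay within the range of the rest. With Hbb-b1 and Hbb-b2 added, the erythroid list summed to 2240.3, 2673, 2173 and 1961 TPM, and control 1 was no longer the lowest. The labels give the strain of all 4 mice as C57BL/6, and these genes are close copies whose reads can be misassigned. The source of the Hbb-b1 and Hbb-b2 counts in control 1 was not tested. The alpha-globin genes Hba-a1 and Hba-a2, also near-identical copies, were at 471 ± 81.3 and 288 ± 43.6 TPM.

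Energy and redox genes were high in all libraries. Nuclear genes of oxidative phosphorylation held 2.56% ± 0.258 of TPM over 88 genes and glycolysis 0.538% ± 0.0296 over 21. Gapdh led glycolysis at 843, 863, 1036 and 795 TPM, followed by Ldha, the lactate dehydrogenase of glycolytic tissue, at 835, 798, 884 and 755. The glucose carrier gene Slc2a1 was at 127 ± 22.8 TPM and Slc2a3 at 10.5 ± 2.27. Antioxidant and metal-binding genes held 1.46% ± 0.2496, with superoxide dismutase Sod1 at 1646, 1742, 2229 and 1756 TPM, peroxiredoxin Prdx1 at 1052, 1099.7, 1375 and 1032 and the secreted glutathione peroxidase Gpx3 at 1035, 1014, 826 and 1153.

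Short genes of these groups were high in control 3. It had the highest CPM for 79 of 80 ribosomal protein genes and 71 of 73 oxidative phosphorylation genes at 10 CPM or more, against 36.9% of all such genes. Gpx3 was lowest in control 3 on the TPM scale. By length-adjusted CPM control 3 was highest for 33 of the ribosomal protein genes and 28 of the oxidative phosphorylation genes, against 32.3% of all genes. The 2 lists supplied 124 (12.1%) of the 1022 shortest genes over which the trend was estimated.

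The spread of single genes between libraries far exceeded counting error. Over the 10224 genes at 10 CPM or more, the median CV was 14.1%, with a 10th to 90th percentile range of 6.16% to 28.4%, and the median counting error was 2.39%. By length-adjusted CPM the median CV was 11.5%. The biological coefficient of variation from edgeR was 0.269 over the 15469 genes kept by its filter, and 0.208 without control 1. The CV was over 50% for 177 genes (1.73%) and under 10% for 2967 (29.0%).

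At 50 CPM or more the 10 most variable genes were Ovgp1 (191%), A2ml1 (189.7%), Krt19 (131%), C3 (129%), Upk3b (117%), Krt18 (82.8%), Krt8 (78.2%), Akr1c18 (69.5%), Inhba (67.7%) and Zbed6 (63.4%). Of these, the first 7 were highest in control 1 and Akr1c18 was lowest there. Inhba and Zbed6, a zinc finger gene, were lowest in control 3. Zbed6 was at 76.2, 41.5, 5.71 and 53.9 TPM, with an exon length of 5007 bases.

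Among the most even genes at 100 CPM or more were Zfp207, Plau, Mta2, Usp4, Dnm2, Slc25a51, Tmem214, Rsrc2 and Riok3, with CVs of 0.905% to 1.64%. Plau, the urokinase gene of the plasminogen system, was the most abundant of them, at 448, 441, 454 and 449.9 CPM with a CV of 1.17% against a counting error of 0.792%. The microtubule-binding spindle gene Zfp207 was at 276, 278, 281 and 282 CPM. This evenness belongs to the CPM scale: by length-adjusted CPM the CVs of the 9 genes ran from 2.34% for Mta2 to 14.2% for Zfp207. Plau was then at 477, 447, 417 and 451 (CV 5.49%) and Zfp207 was at 342 in control 3 against 256 to 267 in the others.

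**Figure D5:**
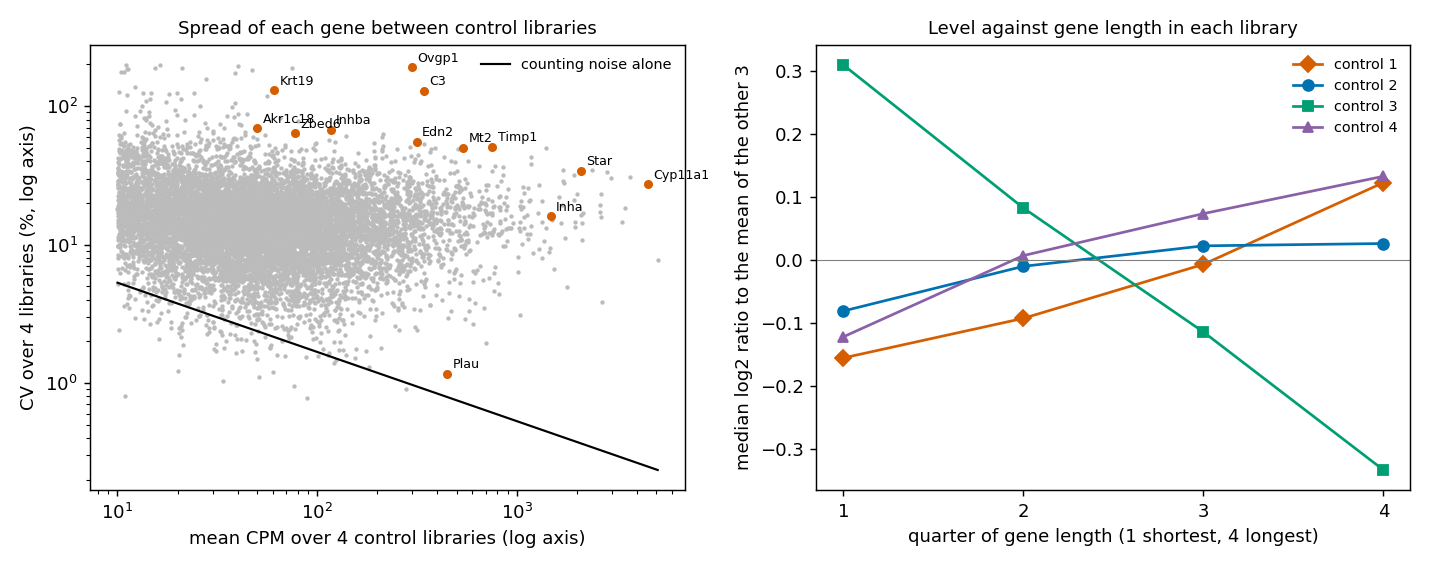
Left, CV over the 4 control libraries (percent, log axis) against mean CPM (log axis) for the 10224 genes at 10 CPM or more, with the counting error as a line and 13 genes named. Right, median log2 ratio of each library to the mean of the other libraries in each of 4 classes of gene length, where control 3 runs from 0.31 in the shortest class to -0.33 in the longest.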

How the data were processed

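Messenger RNA of whole ovary was sequenced with a stranded kit, per the labels' protocols. Each deposited table holds the raw read counts of 1 library. Per the file headers, Subread 1.5.2 (featureCounts) summed them by gene ID over RefSeq exons of GRCm38.p5. The submitters' processing notes also name the aligner STAR (2.4.2a), the trimmer Trimmomatic (0.36, 0.33), edgeR 3.12.0 and 2 patch versions of GRCm38. The command in the headers holds no setting for multi-mapped reads, so genes with near-identical copies are uncertain.

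The 4 control tables were used, grouped by their descriptions, and the other 4 libraries were not analysed here. Symbols came from a RefSeq table of GRCm38.p6, which matched 40290 of 41591 IDs (96.9%). TPM were computed from the counts and the deposited exon lengths. TMM factors (1.05, 1.01, 0.979 and 0.960), CPM and dispersions came from edgeR 4.0.16 in R 4.3.3, after filterByExpr for the spread, and DESeq2 1.42.0 gave alternative size factors. Other tables were made in Python 3.11.15. No pair of libraries agreed within sampling noise (reduced chi-square 27.4 to 142), so all 4 were kept as separate libraries. This does not show that they came from separate animals. With 1 group, no test between groups was made. Dixon's criterion was used only to pick out single libraries, as described below. The spread script was tested on simulated data.

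The members and the 33 gene lists were chosen with earlier results of these data known, so no list is independent evidence. Named genes were the 20 highest coding genes outside the ribosomal proteins, up to 6 highest members of each list with its most variable member, the 10 most and 10 least variable genes at 50 and 100 CPM or more, markers near 0, and Insr, Igf1r and Pgr. Some genes that this rule selects are not reported here. Other named genes were chosen after their values were seen. Alternatives changed the length, the floor, the filter, the scaling and the ranking scale, and left out each library in turn. The removal of the length trend (per library, the median log2 ratio to the gene mean in 50 classes of length, over genes at 10 CPM or more) and the omission of genes on several sequences were chosen after seeing the data.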

Additional observations from a re-analysis of the deposited data

Results flagged for a closer look

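A sample was picked out where the gap between the highest or lowest of the 4 control libraries and its nearest neighbour exceeded Dixon's critical share of the whole range, which chance passes in about 1 in 20 groups of 4 values. Of 238 levels examined (summed TPM of lists, and CPM of named genes), 35 passed, 20 of them through control 1, 12 through control 3, 3 through control 4 and 0 through control 2. The 238 include genes named for their large CV, and lists beside their own members. The share that passed is therefore not comparable with 1 in 20. Each value below is followed by the range of the other libraries.

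Control 1 was high in summed TPM of oviduct and uterus genes at 1734 (30.4 to 54.7), of surface epithelium genes at 2016 (393 to 511) and of mast cell genes, nearly all Hdc, at 255 (125 to 147). In CPM it was high for the oviduct genes Ovgp1 at 1158 (3.998 to 23.4), Ltf at 79.7 (1.14 to 1.56), Foxj1 at 37.97 (0.299 to 2.85), Sprr2f at 28.7 (2.13 to 3.54), Muc1 at 14.7 (4.38 to 5.19) and Dynlrb2 at 7.105 (0 to 0.3898). The keratins Krt19 at 179.9 (19.5 to 22.1), Krt8 at 174 (44.3 to 51.4), Krt18 at 147 (34.5 to 42.5) and Krt7 at 100.5 (17.2 to 19.1), and the urothelial and mesothelial gene Upk3b at 154 (19.9 to 26.2), were high in the same library. So were C3 at 1001 (75.2 to 189) CPM, A2ml1 at 287 (0.245 to 10.04) and the aldolase gene Aldoc at 33.8 (6.296 to 10.1). The same library was low for Star at 1026 (2408 to 2494) CPM, Adamts1 at 1148 (2687 to 2911) and Vcan at 1618 (2285 to 2398).

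Control 3 was high in CPM for Cyp11a1 at 6401 (3795 to 3998), its electron carrier Fdx1 at 2444 (1461 to 1527) and the cholesterol enzyme Dhcr7 at 398 (248 to 272). General cell genes were high there too, with Ftl1 at 1188 (669 to 739), Rplp1 at 946 (619 to 662), Atp5a1 at 873 (795 to 807), Gapdh at 867 (580.2 to 627) and Ppia at 736 (539 to 568). Ldha at 693 (533 to 543), Cox4i1 at 343 (223 to 238) and Cox6b1 at 193 (124 to 127) completed this group. Hormone receptors summed to 1701 (2027 to 2059) TPM in control 3, the lowest. Control 4 was high for the cholesterol enzymes Cyp51 at 471 (318 to 335) CPM and Sqle at 233 (180.4 to 188) and for the macrophage gene Cd68 at 17.96 (13.98 to 14.6).

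Genes at 10 CPM or more were examined again by length-adjusted CPM, an adjustment added after seeing the data. Of the 11 such genes of control 3, 4 still passed (Cyp11a1, Fdx1, Dhcr7 and Gapdh) and 9 were still highest there. Atp5a1, at 797 in control 3 against 810.04 to 852, and Ppia, at 562 against 572 to 614, were then lowest in it. Of 14 such genes of control 1, 12 still passed, and Adamts1 and Vcan, which did not, were still lowest there. Of the 3 genes of control 4, all were still highest and Cyp51 alone still passed.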

How the results depend on the processing

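No paired analysis was possible because 1 group was described and no test between groups was made. Leaving out each library in turn gave 14473 to 15020 genes at 1 TPM or more, 684 to 769 genes holding 50% of TPM and 18 to 20 shared members of the highest 20. The median CV over filtered genes (17.6%) ran from 13.1% without control 3 to 19.7%, and the biological coefficient of variation from 0.208 without control 1 to 0.309. With no filter these were 35.9% and 0.360. With no floor, 28157 genes had a count. Ranked by mean CPM, 11 of the highest 20 were shared, and by share of counts 1259 genes held 50%. The limit for the median CV was the SD of its leave-one-out values, 2.75 percentage points. Other scalings and the removal of the length trend (15.1%) moved it by less. Leaving out control 3 and using no filter moved it by more. Length adjustment changed which library was highest or lowest for the genes and lists named above. Estimated over all genes with a count instead, the adjustment left control 3 at a median log2 ratio of 0.15 in the shortest class.

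List shares moved by less than 1 SD without rows under 300 bases and without genes on several sequences. Leaving out 1 of 4 libraries cannot move a mean by 1 SD of the same 4 values. That limit therefore tells nothing about single libraries, and the means of surface epithelium and oviduct rested on control 1, as given above. Effective lengths gave 0.177% for hormone receptors, 0.347% for cholesterol uptake, 0.843% for collagens, 0.0638% for endothelium, 0.507% for glycolysis, 13.8% for ribosomal proteins and 3.19% for oxidative phosphorylation. With coding genes only, the sex list, which is Xist, was 0. Shares of counts, which favour long genes by construction, were 1.88% for collagens, 0.633% for transcription factors, 0.567% for cholesterol uptake, 0.503% for stroma, 0.443% for cholesterol synthesis, 0.391% for hyaluronan matrix, 0.371% for receptors, 0.3004% for theca, 0.0816% for endothelium and 0.0721% for Xist, all above their shares of TPM. Below them were ribosomal proteins (3.57%), cytoskeleton and translation (2.39%), oxidative phosphorylation (0.893%), antioxidants (0.593%), glycolysis (0.484%), granulosa (0.484%), erythroid (0.0462%), macrophage (0.0311%), adipocyte (0.0269%) and neutrophil genes (0.00188%). Levels of low genes are limited by depth: Errfi1, Itih1 and the Y-linked genes had under 3 counts per library on average.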

Other observations

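Genes chosen after their values were seen add detail to the libraries that stand apart. In control 1, the genes at least 2-fold above all other libraries included the epithelial adhesion genes Cdh1 and Epcam, the mucin gene Muc16, the water channel gene Aqp1 and the ciliary genes Dnah5, Dnah6 and Tppp3. The genes at least 2-fold below included the matrix signalling genes Ccn1 and Ccn2, the tissue factor gene F3, the integrin gene Itga5 and the thrombomodulin gene Thbd. Cdh1 was at 34.8, 4.69, 2.31 and 6.08 TPM and Muc16 at 6.29, 0.755, 0.369 and 1.18.

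Lipid droplet genes differed in order between libraries. Plin5 was at 3.28, 8.21, 24.8 and 5.34 TPM and Plin4 at 6.51, 11.96, 29.99 and 8.75, both highest in control 3, while Plin2 stayed at 78.5, 83.5, 78.96 and 82.8 and Plin3 at 96.99, 82.1, 63.2 and 71.1. Cidea was at 14.998, 0.416, 0.748 and 1.62 TPM, highest in control 1.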
